A study of Homo sapiens with 6 samples.

Results

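The DNA replication origin and fork genes are a list of 50 human genes whose products mark replication origins, load and start the replicative helicase, copy DNA and rebuild chromatin behind the fork. The list was set by gene symbol and by known function, and 49 of its 50 genes were matched among the 22152 genes of the expression table. FEN1, the flap endonuclease of Okazaki fragments, was not analysed here. Expression was measured by RNA-seq, of polyA RNA by its labels, in HaCaT cells, a spontaneously immortalized human keratinocyte (KC) line, so that all values belong to 1 cell line. KCs had been transfected with a synthetic mimic of miR-21-3p (3 libraries) or with a negative control (NC) mimic (3 libraries), both at 1 nM, and RNA was taken 48 h later. The comparison asks which transcripts differ in KCs given miR-21-3p, the strand of the miR-21 duplex long regarded as its passenger. Each library held between 24410000 and 27960000 reads counted in genes, as recovered from the normalized values.

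Keratinocyte identity was visible in all libraries. Of 10 keratinocyte markers, 9 were matched, with summed levels between 295800 and 324855 normalized counts and KRT5 as the most abundant. Among markers of other cell types, only COL1A1 of 6 fibroblast genes was matched (364 to 560 normalized counts), only PMEL of 5 melanocyte genes (120 to 155), only CD14 of 4 leukocyte genes (58.7 to 92.2), and VWF and CDH5 of 3 endothelial genes (877 to 1197 summed, with VWF the more abundant). No matched marker was at 0 in all libraries. KRT6A was higher (log2 fold change 0.34, limma adjusted p = 0.00203) and CDH5 lower (-1.29, limma adjusted p = 0.00258) with the miR-21-3p mimic. CDH5 had 477, 286 and 393 normalized counts in NC replicates 1, 2 and 3, the lowest in replicate 2, and 165, 178 and 122 in the mimic libraries. The part of these markers in the results below was not tested.

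Replication of the genome starts when the origin recognition complex (ORC) binds origins and, with CDC6 and CDT1, loads the ring-shaped MCM2 to MCM7 helicase in G1 phase. In S phase the kinase pair CDC7 and DBF4, together with cyclin-dependent kinases, MCM10, CDC45 and the GINS complex, turns the loaded ring into a running helicase. DNA polymerases alpha, delta and epsilon then copy the strands, held in place by the sliding clamp PCNA and its loader RFC, while chromatin assembly factor CAF-1 puts histones back. In epidermis these genes are active in the dividing basal layer, and many of them are classical targets of E2F transcription factors, which switch them on as cells pass from G1 into S phase. In RNA from a whole culture, a larger share of cells in S phase and more RNA per cell cannot be told apart.

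A minority of the replication genes passed the test, all of them higher in miR-21-3p mimic KCs and by small amounts. In limma fitted on log2(normalized count + 1) over all genes, with a Benjamini-Hochberg adjusted p under 0.05 as the threshold, 13 of the 49 replication genes were higher and 0 were lower, where 6.15% of all 14782 genes tested were higher and 4.67% were lower. The 13 genes were ORC6, CDC6, MCM4, MCM6, MCM7, MCMBP, MCM10, GINS2, DBF4, POLD2, PCNA, RFC2 and RFC4. All 49 passed the filter of a mean of at least 10 normalized counts. The median log2 fold change over the 49 genes was 0.24, against 0.004 over all genes tested, and the largest was 0.58 for MCM6, a 1.5-fold difference. A positive log2 fold change was found for 47 of the 49, for 46 when the values were rescaled by TMM factors and for 48 when they were rescaled to equal totals, because ORC4 and LIG1 lay next to 0. At an unadjusted p under 0.05, 35 genes were higher and 0 lower, where 15.3% of all genes tested were higher and 13.2% lower, and the number of lower genes was also 0 with edgeR and with DESeq2. DESeq2 run on the reads recovered from the values called 19 of them higher, where 6.44% of the 13656 genes it gave an adjusted p were higher, and edgeR called 12, where 5.99% of all genes were higher. By the study's methods RNA came from 3 replicates of transfected cells in each condition. Its general statement that experiments were repeated independently, with triplicates in each, does not say whether the 3 libraries of a group came from separate cultures, so these p-values measure the spread between libraries, which may be technical.

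NC replicate 2 stood apart from the other NC libraries, and it did so in the replication genes. It was the highest of the 3 NC libraries for 44 of 49 replication genes (89.8%), where this held for 36.1% of all genes tested. Relative to the mean of the NC libraries, the median log2 level of the replication genes was -0.11 in NC replicate 1, 0.17 in NC replicate 2 and -0.06 in NC replicate 3. The same medians were 0.24, 0.14 and 0.33 in miR-21-3p replicates 1, 2 and 3, so that NC replicate 2 lay above miR-21-3p replicate 2 in this median. NC replicate 2 exceeded miR-21-3p replicate 2 for 30 of the 49 genes, miR-21-3p replicate 1 for 13 and miR-21-3p replicate 3 for 6. It exceeded the lowest miR-21-3p library of the gene for 33 genes, whereas NC replicate 1 did so for 4 and NC replicate 3 for 5. On the first principal component of all genes tested, which held 47% of the variance, NC replicate 2 lay at -1.74, between NC replicates 1 (-21.17) and 3 (-13.4) and the miR-21-3p libraries (6.81 to 17.87). The 2 groups did not overlap for 14 of the 49 genes (28.6%), all of them higher with the mimic. Among all 14782 genes tested, the groups did not overlap for 2437 that were higher (16.5%) and for a further 2183 that were lower.

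**Figure D1:**
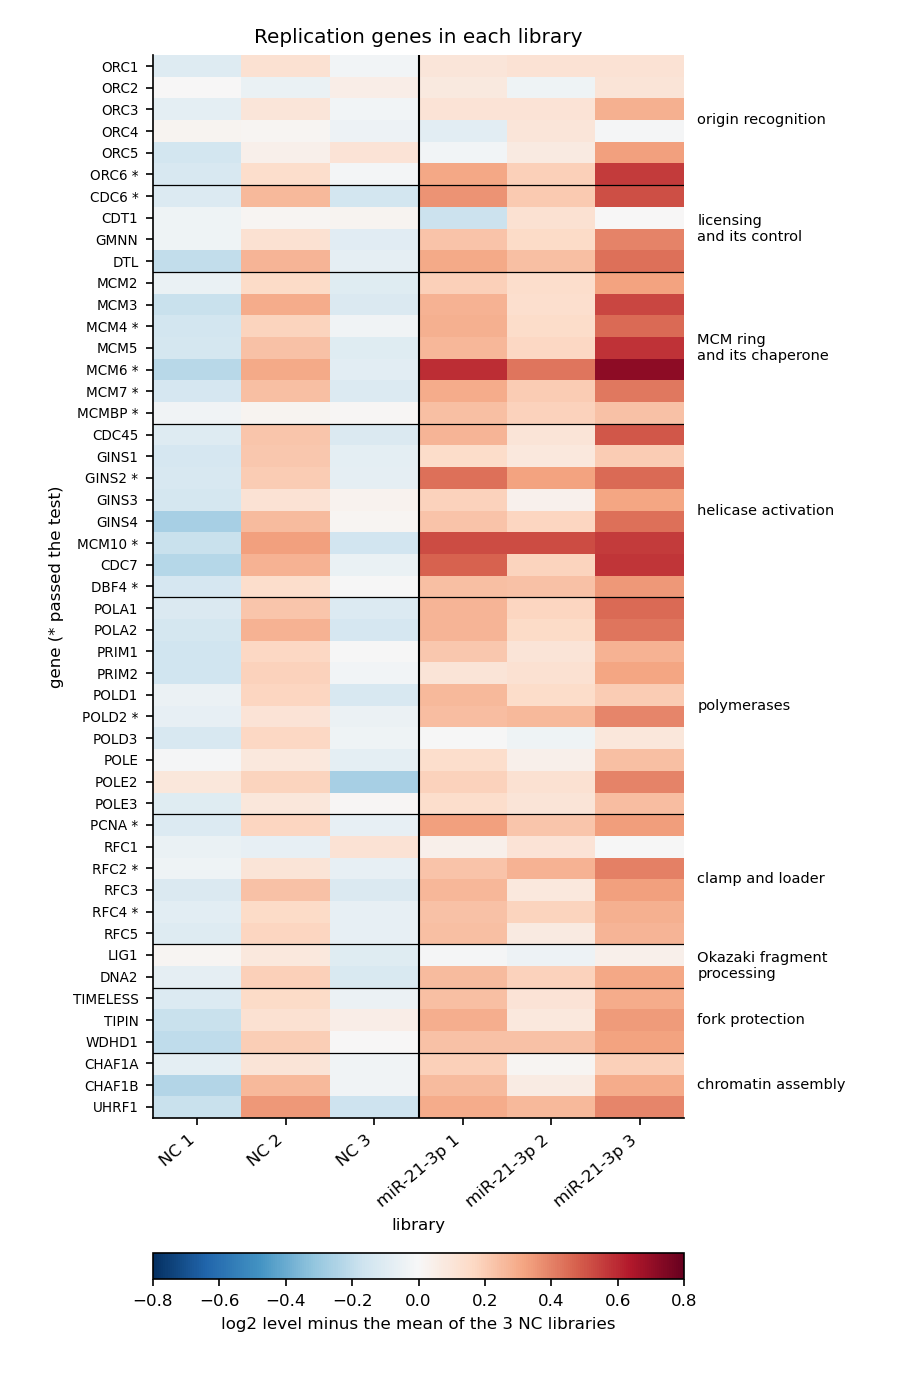
Colour shows the log2 level of each of the 49 replication genes in each library minus the mean of its 3 NC libraries, with genes grouped by step and an asterisk on the 13 genes that passed the test. NC replicate 2 is the highest NC library for 44 genes and miR-21-3p replicate 3 the highest mimic library for 42.

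How many replication genes passed the test rested on which libraries were in the fit. Without NC replicate 2, 37 of the 49 were higher and 0 lower, where 11.0% of all genes tested were higher. Without miR-21-3p replicate 2, which was the lowest mimic library for 39 of the 49 genes, 19 were higher (6.08% of all genes tested). Without NC replicate 1, MCM6, MCMBP and POLD2 were left (3 genes, with 2.13% of all genes higher), and without miR-21-3p replicate 1 POLD2 alone (1 gene, with 0.994% of all genes higher). These names were picked after their values were seen. Without NC replicate 3 or without miR-21-3p replicate 3, limma called 0 of them, where 0.663% and 1.37% of all genes tested were higher. At an unadjusted p under 0.05, 22, 22, 29 and 22 replication genes were higher without NC replicate 1, NC replicate 3, miR-21-3p replicate 1 or miR-21-3p replicate 3, where this held for 12.2%, 11.1%, 11.5% and 11.1% of all genes, and no other tool was run on sets of 5 libraries. The median log2 fold change moved less, between 0.19 and 0.32 over the 6 fits, and the SD of the replication median over the NC libraries was 0.15.

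**Figure D2:**
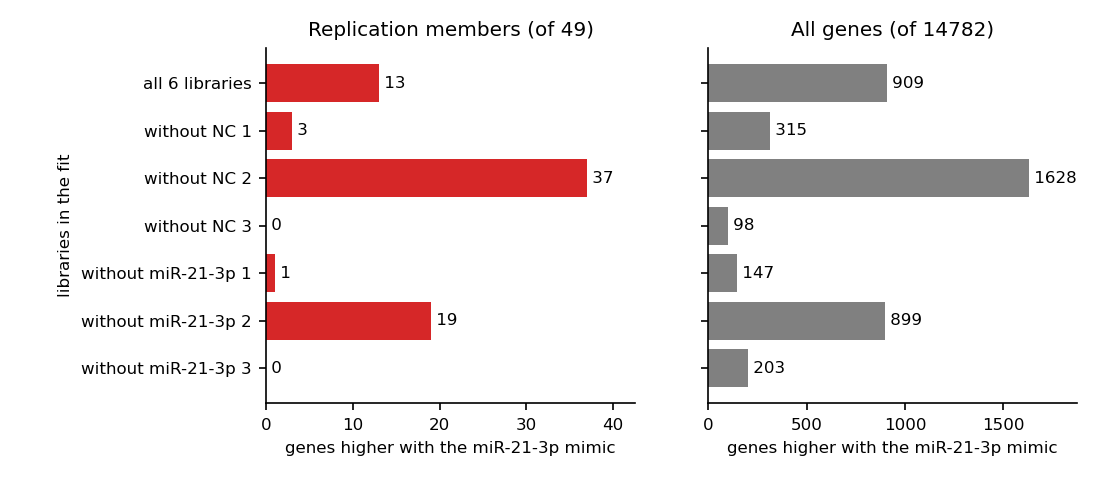
Bars give the number of genes higher with the miR-21-3p mimic (limma, adjusted p under 0.05) with all 6 libraries and with each library left out in turn, for the 49 replication genes on the left and for all 14782 genes tested on the right. The replication count runs from 0 to 37, and the count over all genes from 98 to 1628.

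The promoters of replication genes are shown for their E2F elements. The list was not built on these elements, but many replication genes are classical E2F targets, so their share is not independent of the list. Windows from 250 bases before to 50 bases after the transcription start were taken from RefSeq (GRCh38.p14), and 44 of the 49 genes had one. Both strands were searched for TTTGGCGC, TTTCCCGC, TTTGCCGC and TTTCGCGC, spellings of the E2F element, of which TTTGGCGC and the complement of TTTCGCGC can overlap. An element was present in 19 of the 44 replication promoters (43.2%) in 5.42% of the 8816 promoters of tested protein-coding genes, and in 4.44% of all 15843 protein-coding promoters. It was present in 5 of 12 genes that passed the test (41.7%) and in 14 of 32 that did not (43.8%). CCAAT was found in 54.5% of the replication promoters, 36.7% of those of tested genes and 36.4% of all. The corresponding shares were 72.7%, 70.9% and 58.5% for GGGCGG, a Sp1-type box, and 2.27%, 9.29% and 12.1% for TTTGAA, the core of the CHR element known from promoters of mitotic genes, which among the replication genes was in DBF4 alone. In the mitotic list described below, 15 of 20 genes had a promoter, of which 10 held TTTGAA (66.7%) and 3 an E2F element (20%). The 5 genes that passed the test and held an element are printed 5′ to 3′ on the strand of the gene, with the E2F element in capitals.
CDC6, chr17:40287629-40287928, plus strand: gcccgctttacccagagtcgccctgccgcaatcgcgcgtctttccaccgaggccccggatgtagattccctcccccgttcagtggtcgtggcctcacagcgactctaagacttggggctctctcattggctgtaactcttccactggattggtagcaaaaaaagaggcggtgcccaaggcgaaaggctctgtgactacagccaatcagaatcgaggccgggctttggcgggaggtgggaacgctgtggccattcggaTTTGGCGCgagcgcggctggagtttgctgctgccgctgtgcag
MCM6, chr2:135876394-135876693, minus strand: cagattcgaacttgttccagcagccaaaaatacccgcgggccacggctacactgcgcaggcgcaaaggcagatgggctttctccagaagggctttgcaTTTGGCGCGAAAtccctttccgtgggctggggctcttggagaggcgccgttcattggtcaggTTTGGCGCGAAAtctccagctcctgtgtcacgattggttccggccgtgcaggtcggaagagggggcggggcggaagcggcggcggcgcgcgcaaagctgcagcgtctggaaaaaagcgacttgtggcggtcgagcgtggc
MCM7, chr7:100101348-100101647, minus strand: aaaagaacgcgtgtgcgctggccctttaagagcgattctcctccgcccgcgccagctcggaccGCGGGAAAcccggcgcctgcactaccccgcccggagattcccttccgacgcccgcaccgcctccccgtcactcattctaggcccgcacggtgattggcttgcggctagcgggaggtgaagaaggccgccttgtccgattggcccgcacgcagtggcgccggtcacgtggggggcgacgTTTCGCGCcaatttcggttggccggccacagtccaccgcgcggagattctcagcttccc
GINS2, chr16:85688905-85689204, minus strand: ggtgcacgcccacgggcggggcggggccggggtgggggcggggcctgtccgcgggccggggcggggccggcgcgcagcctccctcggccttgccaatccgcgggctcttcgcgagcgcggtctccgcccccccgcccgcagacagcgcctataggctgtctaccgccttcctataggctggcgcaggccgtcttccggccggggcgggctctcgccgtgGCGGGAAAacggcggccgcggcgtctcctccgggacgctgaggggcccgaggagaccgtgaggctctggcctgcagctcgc
PCNA, chr20:5126573-5126872, minus strand: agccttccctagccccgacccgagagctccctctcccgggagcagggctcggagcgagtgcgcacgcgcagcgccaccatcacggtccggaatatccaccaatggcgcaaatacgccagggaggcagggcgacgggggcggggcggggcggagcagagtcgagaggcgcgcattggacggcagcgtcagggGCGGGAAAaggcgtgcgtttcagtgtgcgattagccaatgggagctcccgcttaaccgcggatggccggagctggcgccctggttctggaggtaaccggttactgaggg
The MCM6 window held 4 matches, in 2 runs in which TTTGGCGC overlapped the complement of TTTCGCGC, and the MCM7 window held 2. The CDC6 match began at position 8, counted from 1 at the start, and the PCNA match 59 bases before the start. CDT1 and LIG1, whose log2 fold changes were -0.02 and -0.003, also held an element each. A match describes these letters only and says nothing about which factor was bound.

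Origin recognition was the step with the lowest median log2 fold change, 0.1174, and 1 of its 6 genes was higher. The 2 genes of Okazaki fragment processing had nearly the same median, 0.1235. ORC6, the smallest subunit and the one most loosely attached to the complex, had 672, 809 and 726 normalized counts in the NC libraries and 911, 839 and 1080 in the mimic libraries. The groups did not overlap, and the log2 fold change was 0.35 ± 0.09 (SE, limma adjusted p = 0.0313). ORC1, ORC2, ORC3, ORC4 and ORC5, which form the ring around DNA, did not pass, with log2 fold changes of 0.11, 0.05, 0.17, 0.001 and 0.13. For ORC4 the 95% confidence interval ran from -0.14 to 0.14. ORC6 still passed without NC replicate 2 or miR-21-3p replicate 2, and its call was lost without NC replicate 1, NC replicate 3, miR-21-3p replicate 1 or miR-21-3p replicate 3. ORC3 passed as well when NC replicate 2 was left out (2 of 6).

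Among the licensing genes, CDC6 was higher and CDT1 was not, although both are needed to load the helicase. CDC6 had 1370, 1770 and 1340 normalized counts in the NC libraries and 1900, 1710 and 2120 in the mimic libraries, so NC replicate 2 lay above miR-21-3p replicate 2 and the groups overlapped. Its log2 fold change was 0.36 ± 0.10 (SE, limma adjusted p = 0.0384). CDT1, the loading factor destroyed once S phase begins, was at 1893 ± 37.9 (SD, n = 3) in NC and 1880 ± 191 (SD, n = 3) in miR-21-3p mimic KCs, and its 95% confidence interval ran from -0.16 to 0.13. GMNN, which encodes geminin, the inhibitor of CDT1, and DTL, the substrate receptor through which a ubiquitin ligase on chromatin-bound PCNA destroys CDT1, had log2 fold changes of 0.26 and 0.33 and did not pass in the main limma fit (limma adjusted p = 0.0574 and 0.0555), whereas DESeq2 called DTL (adjusted p = 0.0253). Both passed without NC replicate 2, which made 3 of 4, and GMNN also passed without miR-21-3p replicate 2 (2 of 4), whereas the CDC6 call was lost without NC replicate 1, NC replicate 3, miR-21-3p replicate 1 or miR-21-3p replicate 3.

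The MCM ring was the step with the highest median, 0.31, and 4 of its 7 genes were higher, MCM4, MCM6, MCM7 and MCMBP. MCM2 to MCM7 form a hexamer with 1 copy of each, which unwinds DNA ahead of the polymerases, and MCMBP is a chaperone that binds MCM subunits outside the loaded ring. MCM6 had 692, 1000 and 764 normalized counts in the NC libraries and 1220, 1090 and 1330 in the mimic libraries. Every mimic library lay above every NC library, and the log2 fold change was 0.58 ± 0.11 (SE, limma adjusted p = 0.0112). MCM4 had 3820, 4800 and 4150 normalized counts in NC and 5170, 4690 and 5790 in miR-21-3p mimic KCs, a log2 fold change of 0.29 ± 0.08 (SE, limma adjusted p = 0.0424). MCM7 had 5230, 6790 and 5330 in NC and 7060, 6600 and 7690 in miR-21-3p mimic KCs, a log2 fold change of 0.31 ± 0.09 (SE, limma adjusted p = 0.0418). For both genes NC replicate 2 lay above miR-21-3p replicate 2, so the groups overlapped. MCM4 and MCM7 were not called when the values were rescaled to equal totals or with edgeR on library size alone, which left MCM6 and MCMBP (2 of 7).

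MCM2, MCM3 and MCM5, the other subunits of the ring, had log2 fold changes from 0.22 to 0.34 and did not pass in the main limma fit. DESeq2 called MCM2 (adjusted p = 0.0348) and MCM5 (0.0302) as well, which made 6 of the 7 genes of the step. MCM2 had 2860, 3290 and 2770 normalized counts in NC and 3380, 3270 and 3710 in miR-21-3p mimic KCs (0.22 ± 0.07, SE, limma adjusted p = 0.0559). MCM3 had 1990, 2770 and 2080 against 2740, 2470 and 3260 (0.31 ± 0.12, SE, limma adjusted p = 0.0971). MCM5 had 598, 774 and 616 against 793, 739 and 981 (0.34 ± 0.11, SE, limma adjusted p = 0.0708). In each of the 3 genes NC replicate 2 was the highest NC library and exceeded miR-21-3p replicate 2. Without NC replicate 2 all 7 genes of the step passed, with log2 fold changes of 0.73 for MCM6, 0.46 for MCM3, 0.45 for MCM5, 0.43 for MCM7, 0.38 for MCM4, 0.29 for MCM2 and 0.23 for MCMBP. MCMBP was the steadiest, with 2190, 2270 and 2250 normalized counts in NC and 2640, 2540 and 2630 in miR-21-3p mimic KCs. MCM6 and MCMBP alone passed without NC replicate 1. Without NC replicate 3, miR-21-3p replicate 1 or miR-21-3p replicate 3, limma called 0 of 7, with 6, 7 and 5 genes at an unadjusted p under 0.05.

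Subunits of the ring were not at equal transcript levels. Per kilobase of exon in GENCODE 29, the level in NC KCs was 1318.5 ± 199.1 normalized counts (SD, n = 3) for MCM7, 624.7 ± 116.9 for MCM3, 610.5 ± 71.5 for MCM4, 606.5 ± 56.7 for MCM2, 198.8 ± 39.1 for MCM6 and 90.3 ± 13.2 for MCM5. MCM3, MCM4 and MCM2 lay within each other's SD. The order was the same in miR-21-3p mimic KCs, from 1622.7 ± 124.8 for MCM7 to 294.6 ± 29.2 for MCM6 and 114.2 ± 17.3 for MCM5. These levels depend on the exon length used, which was 7.34 kb for MCM5 and 4.12 kb for MCM6 when the exons of all annotated transcripts were joined.

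**Figure D3:**
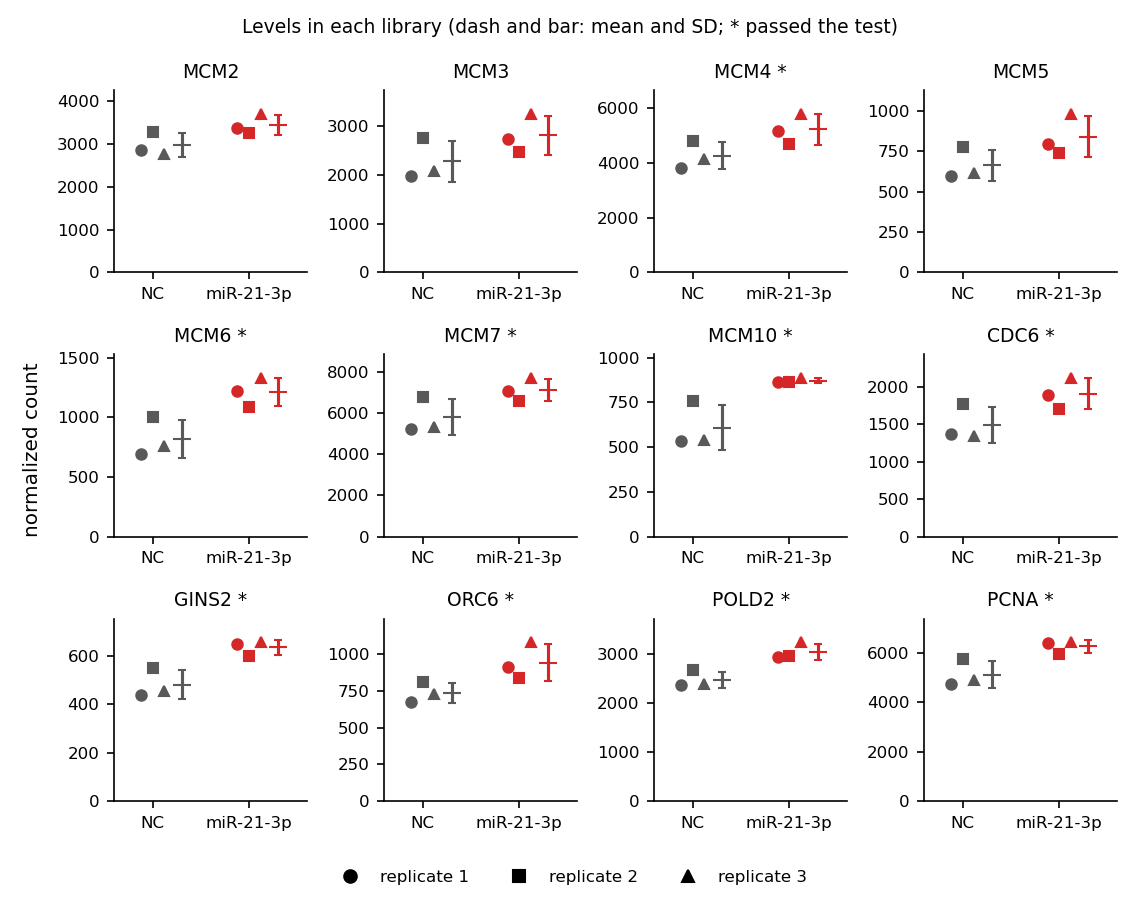
Points are normalized counts in each library for MCM2 to MCM7 and 6 further replication genes, grey for NC and red for miR-21-3p mimic KCs, with the mean and SD of 3 libraries beside them. Squares mark replicate 2, which is the highest NC library in every panel and exceeds the mimic square in MCM2, MCM3, MCM4, MCM5, MCM7 and CDC6.

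Of the 8 genes that activate the helicase, 3 were higher, MCM10, GINS2 and DBF4, and the median log2 fold change was 0.29. MCM10, which is needed for the helicase to start unwinding origins, had 532, 757 and 541 normalized counts in the NC libraries and 864, 866 and 886 in the mimic libraries. The mimic libraries lay close together, the groups did not overlap, and the log2 fold change was 0.53 ± 0.11 (SE, limma adjusted p = 0.0131). GINS2, a subunit of the tetramer that joins CDC45 and MCM2 to MCM7 in the active helicase, had 437, 550 and 456 normalized counts in NC and 651, 599 and 656 in miR-21-3p mimic KCs. Its groups did not overlap either, with a log2 fold change of 0.41 ± 0.09 (SE, limma adjusted p = 0.0156). DBF4, the activating subunit of the CDC7 kinase, had a log2 fold change of 0.27, and CDC7 itself had 0.41 and did not pass in limma (limma adjusted p = 0.0561), though DESeq2 called it (adjusted p = 0.0203). The other GINS subunits GINS1, GINS3 and GINS4, and CDC45, had 0.15, 0.18, 0.28 and 0.29 and did not pass. Without NC replicate 2, 7 of 8 passed, the exception being GINS3, and without miR-21-3p replicate 2 the number was 5. Without NC replicate 1, NC replicate 3, miR-21-3p replicate 1 or miR-21-3p replicate 3, limma called 0 of 8, with 4, 4, 6 and 4 genes at an unadjusted p under 0.05.

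Among 10 polymerase genes POLD2 was higher in limma, and DESeq2 called POLA1 as well (2 of 10). POLD2, the B subunit that ties the catalytic subunit of polymerase delta to the rest of the enzyme, had 2370, 2670 and 2400 normalized counts in the NC libraries and 2940, 2960 and 3240 in the mimic libraries. The groups did not overlap, with a log2 fold change of 0.30 ± 0.06 (SE, limma adjusted p = 0.0110), and it passed in 4 of the 6 fits that left out a library, all but those without NC replicate 3 or miR-21-3p replicate 3. The other delta subunits, POLD1 (catalytic) and POLD3, had log2 fold changes of 0.20 and 0.02. Polymerase alpha and its primase, which lay down the primers, were represented by POLA1 (0.30), POLA2 (0.28), PRIM1 (0.20) and PRIM2 (0.18), none of which passed in limma, while POLA1 had an adjusted p of 0.0272 in DESeq2. POLE, POLE2 and POLE3, subunits of the leading-strand polymerase epsilon, had 0.14, 0.24 and 0.16 and did not pass. The median of the step was 0.20. Without NC replicate 2, 8 of 10 passed, the exceptions being POLD3 and POLE2, and without miR-21-3p replicate 2 POLA1 joined POLD2 (2 of 10).

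Of the clamp and its loader, PCNA, RFC2 and RFC4 were higher, which was 3 of 6 genes. PCNA, the sliding ring that tethers polymerases and many repair enzymes to DNA, had 4740, 5750 and 4890 normalized counts in the NC libraries and 6420, 5960 and 6430 in the mimic libraries. The groups did not overlap, and the log2 fold change was 0.29 ± 0.07 (SE, limma adjusted p = 0.0183). RFC2, a small subunit of the loader, had 440, 485 and 431 normalized counts in NC and 528, 548 and 597 in miR-21-3p mimic KCs, again without overlap, and a log2 fold change of 0.30 ± 0.08 (SE, limma adjusted p = 0.0273). RFC4, another small subunit, had 0.23 and lay just inside the threshold (limma adjusted p = 0.0489). Neither edgeR nor limma on rescaled values called RFC4, whereas DESeq2 (adjusted p = 0.0466) and limma-voom (adjusted p = 0.0482) did. RFC3 and RFC5 had 0.23 and 0.19 and did not pass. RFC1, the large subunit, had 0.05 with a 95% confidence interval from -0.08 to 0.18, and was the exception when 5 of 6 passed without NC replicate 2. Without NC replicate 1, NC replicate 3, miR-21-3p replicate 1 or miR-21-3p replicate 3, limma called 0 of 6, each time with 3 genes at an unadjusted p under 0.05. Per kilobase of exon PCNA had the highest level of the replication genes measured this way, 3485.4 ± 370.5 normalized counts (SD, n = 3) in NC and 4262.4 ± 182.5 in miR-21-3p mimic KCs.

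No gene of Okazaki fragment processing, fork protection or chromatin assembly passed in the main limma fit, among 2, 3 and 3 genes. At an unadjusted p under 0.05 the numbers higher were 1, 3 and 1, edgeR called 0 in each, and DESeq2 called 0, 1 and 0. DNA2, a nuclease and helicase that trims long flaps, had 621, 747 and 601 normalized counts in NC and 779, 744 and 809 in miR-21-3p mimic KCs (log2 fold change 0.25 ± 0.08, SE, limma adjusted p = 0.0679). LIG1, the ligase that seals the fragments, was at 1060 ± 66.1 (SD, n = 3) in NC and 1057 ± 30.6 in miR-21-3p mimic KCs, with a 95% confidence interval of the log2 fold change from -0.13 to 0.13. WDHD1, which couples polymerase alpha to the helicase, had 911, 1200 and 1050 against 1230, 1230 and 1310 normalized counts, with no overlap (0.26 ± 0.08, SE, limma adjusted p = 0.0617), and was the fork protection gene called by DESeq2. TIMELESS and its partner TIPIN, which steady the fork, had 0.22 and 0.24. UHRF1, which reads hemimethylated DNA behind the fork for the maintenance methyltransferase, had 327, 471 and 330 against 455, 443 and 485 normalized counts (0.31 ± 0.12, SE, limma adjusted p = 0.112). For UHRF1 the value of NC replicate 2 lay within the mimic group. CHAF1A and CHAF1B, subunits of CAF-1, had 0.13 and 0.21. Without NC replicate 2, DNA2, WDHD1, TIMELESS, UHRF1 and CHAF1B passed, and without miR-21-3p replicate 2 TIMELESS did.

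**Figure D4:**
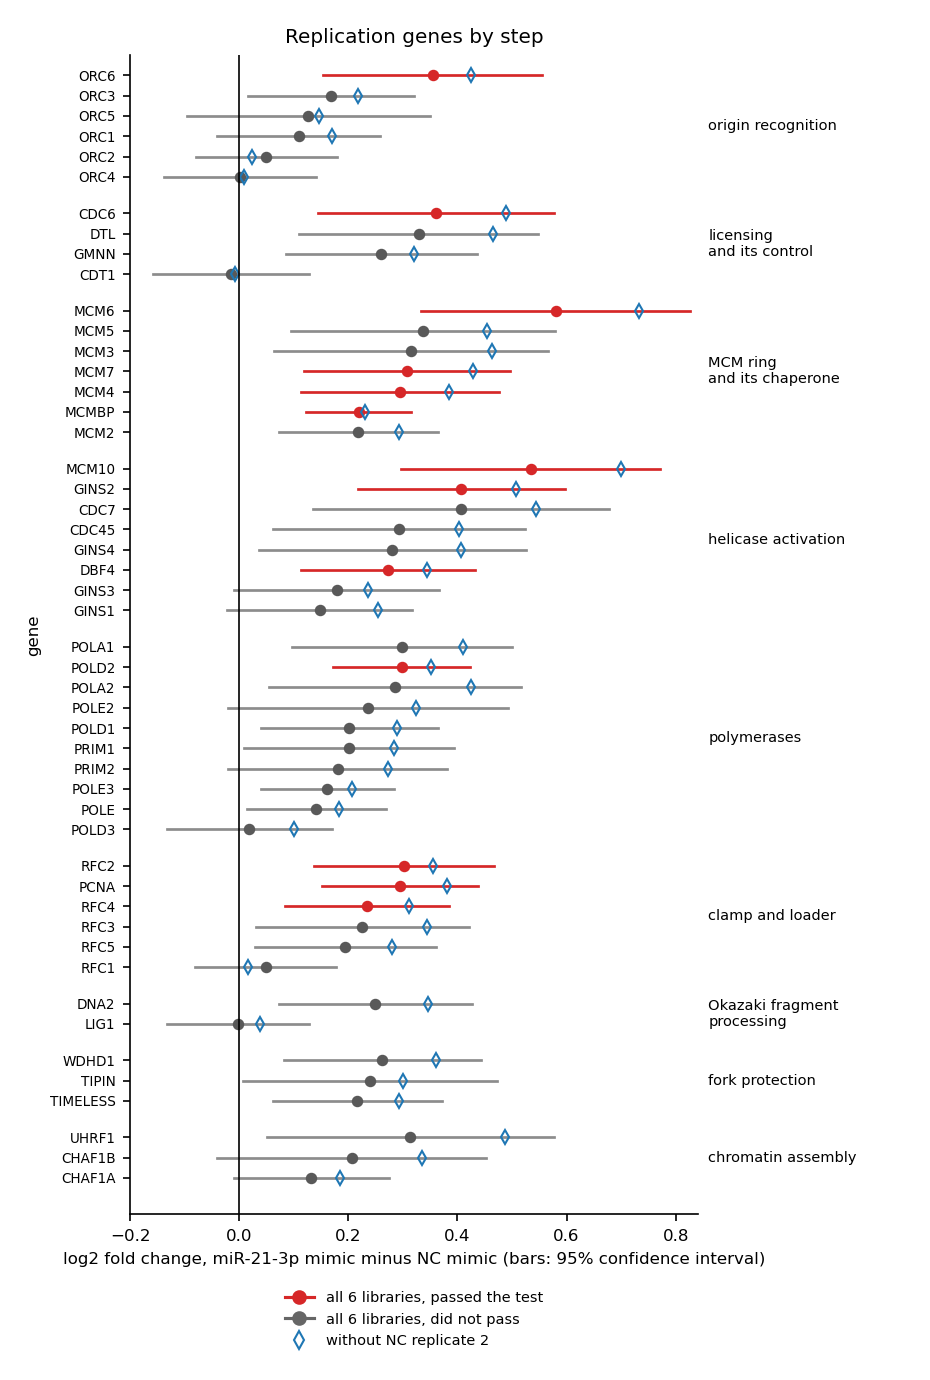
Points are log2 fold changes (miR-21-3p mimic minus NC mimic) with 95% confidence intervals from limma for the 49 replication genes by step, red where the adjusted p was under 0.05, and open diamonds are the values without NC replicate 2. MCM6 and MCM10 lie farthest to the right (0.58 and 0.53), and ORC4, CDT1, POLD3 and LIG1 lie within 0.02 of 0 with all 6 libraries.

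Other genes of replication and of the neighbouring cell cycle steps were compared in 4 lists set by known function, beside the 6.15% of all genes tested that were higher and the 4.67% that were lower in the main fit, or 15.3% and 13.2% at an unadjusted p under 0.05. Of 38 further replication factors, 14 were higher and 0 lower with limma, with a median log2 fold change of 0.16, and at an unadjusted p under 0.05 19 were higher and 0 lower, as were 0 lower with edgeR and DESeq2. They included CLSPN, the adaptor that passes the fork checkpoint signal on (0.44 ± 0.11, SE, limma adjusted p = 0.0222), DONSON, which helps to assemble the helicase (0.29 ± 0.07, SE, 0.0233), and the histone chaperone ASF1A (0.36 ± 0.08, SE, 0.0159). The count was 21 without NC replicate 2, where 11.0% of all genes tested were higher. It was 0 without NC replicate 1, NC replicate 3, miR-21-3p replicate 1 or miR-21-3p replicate 3. Those fits called 2.13%, 0.663%, 0.994% and 1.37% of all genes higher. At an unadjusted p under 0.05, 14, 14, 15 and 14 of the factors were higher, against 12.2%, 11.1%, 11.5% and 11.1% of all genes. Of 26 genes of G1/S control, 6 were higher and 2, TFDP2 and CDK6, were lower. E2F2, a transcription activator of replication genes, was higher by 0.46 ± 0.05 (SE, limma adjusted p = 0.00154), CCNA2, the cyclin of S phase, by 0.39 ± 0.07 (SE, 0.00687), and TFDP1, the dimer partner of E2F factors, by 0.25 ± 0.06 (SE, 0.0193). Without NC replicate 2, 13 were higher and 2 lower, where 11.0% and 9.02% of all genes were. Without NC replicate 1, NC replicate 3, miR-21-3p replicate 1 or miR-21-3p replicate 3, 2 were higher, with 1, 0, 0 and 0 lower. Of all genes, 1.55%, 0.548%, 0.893% and 1.12% were lower in those fits, and the shares higher are given above. Of 10 fork checkpoint genes, a list that left CLSPN to the further replication factors, 0 passed in limma, edgeR or DESeq2. At an unadjusted p under 0.05, 3 of the 10 were higher and 1 lower in limma. ATR, the kinase of the checkpoint, had a log2 fold change of 0.18 ± 0.07 (SE, limma adjusted p = 0.0991), CDC25C 0.23 ± 0.09 (SE, 0.104) and RAD1, of the checkpoint clamp, 0.14 ± 0.06 (SE, 0.165). Without NC replicate 2 ATR and CDC25C passed (2 of 10), where 11.0% of all genes were higher. Without miR-21-3p replicate 2 ATR did (1 of 10), where 6.08% of all genes were higher.

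Mitotic genes were higher nearly throughout. Of 20 mitotic genes 19 were higher in limma, all but TTK, where 6.15% of all genes tested were higher. Their median log2 fold change was 0.37, and the groups did not overlap for 18, all of them higher with the mimic. Among all 14782 genes tested, 16.5% did not overlap and were higher, and 2183 genes did not overlap and were lower. BIRC5, which encodes survivin, was higher by 0.40 ± 0.06 (SE, limma adjusted p = 0.00538), CDK1 by 0.42 ± 0.07 (SE, 0.00538) and the centromeric histone CENPA by 0.33 ± 0.06 (SE, 0.00755). NC replicate 2 was the highest NC library for all 20 of them, as it was for most replication genes, and its median excess over the other NC libraries was 0.24 on the log2 scale in the mitotic and 0.25 in the replication genes. It exceeded miR-21-3p replicate 2 for 1 of the 20 mitotic genes and for 30 of the 49 replication genes. Without NC replicate 1, 2 or 3, 12, 20 and 4 mitotic genes were higher, where 2.13%, 11.0% and 0.663% of all genes tested were. Without miR-21-3p replicate 1, 2 or 3 the numbers were 10, 18 and 10, where 0.994%, 6.08% and 1.37% of all genes were higher. Whether the difference between the mitotic and the replication genes exceeds what libraries of this kind give was not tested.

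**Figure D5:**
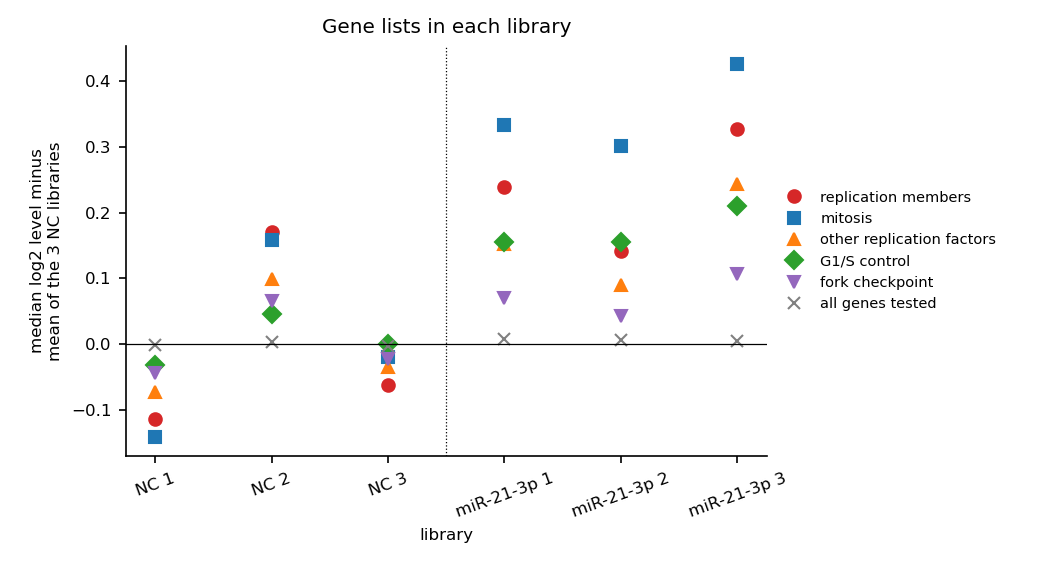
Points are the median log2 level of each gene list in each library minus the mean of the 3 NC libraries. The replication genes are at 0.17 in NC replicate 2 and 0.14 in miR-21-3p replicate 2, and the mitotic genes at 0.16 and 0.30.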

How the data were processed

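Per the labels, polyA RNA libraries were made with a stranded kit, whereas the study's methods speak of small RNA libraries, and the labels were followed. The authors' processing notes name bcl2fastq 2.18.12, cutadapt 1.15, TopHat2 2.1.1, featureCounts of Subread 1.5.2 and DESeq2. The genome build, annotation release and strand setting of counting were not given in the sources used here, so reads of overlapping antisense genes may be mixed. The deposited values are a normalized signal, gene counts divided by size factors and printed with 3 significant digits. They were therefore tested with limma 3.58.1 (R 4.3.3; trend, no covariate) on log2(value + 1) in place of the count test first planned, for genes with a mean of at least 10, so fold changes of low genes are understated. Of low values, 100% came out as whole reads within 0.1, and edgeR 4.0.16 on those reads called 886 genes higher and 767 lower of 14792. DESeq2 1.42.0 and limma-voom were alternatives, and each tool was first tested on simulated data. Every replication gene was named with its direction. Among the replication genes, values in each library were given for MCM2 to MCM7 and, outside the rule that follows, for MCMBP. In other steps they were given for up to 2 genes with the largest change among those past the threshold. Where none passed, the gene with the smallest p was used, and the 3 smallest adjusted p per other list were named. Members and lists were chosen with earlier results of these data known. Exon lengths were found for 48 of the 49 genes by Ensembl ID.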

Additional observations from a re-analysis of the deposited data

How the results depend on the processing

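Over all genes, 909 were higher and 691 lower. Leaving out 1 library gave between 98 and 1628 higher and between 81 and 1333 lower, and 0 to 37 of 49 replication genes higher. In the other 4 lists together the same fits gave 6 to 56 higher and 0 to 2 lower. At an adjusted p under 0.01, limma called 138 genes higher and 105 lower over all genes, 0 replication genes, and 8 higher and 0 lower in the other lists.

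The replicate numbers are shared by both groups in the labels. Same-numbered libraries did not deviate together (correlations of deviations -0.006, -0.201 and -0.168). No library correlated best with the library of its own number, the highest value being 0.268 for NC replicate 2 with miR-21-3p replicate 3. A replicate block, as a paired fit, called 685 genes higher and 517 lower, 14 replication genes higher (with DTL and WDHD1, without RFC4), and 32 higher and 1 lower in the other lists, where the further replication factors fell from 14 to 8. The lower count of those lists was also 1 with no filter on low values.

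Rescaling by TMM factors or to equal totals, edgeR with TMM on recovered reads and pseudocounts of 0.5 and 5 were chosen after seeing the data, and together with the planned DESeq2, voom, filter settings and edgeR with RLE or library size they called between 10 and 19 replication genes higher. Samples of 3 per group cannot give an exact permutation p below 0.1 for a single gene. The lowest NC mean among the replication genes was 224 normalized counts (TIPIN), where counting error weighs most.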
